A study of Drosophila melanogaster with 14 samples.

Results

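The basement membrane genes of cultured Drosophila melanogaster ovarian somatic cells (OSCs) were followed through 3 knockdowns of chromatin repressor genes. The genes were taken by name: the collagen IV chains Cg25C (Col4a1) and vkg, the laminin chains LanA, wb, LanB1 and LanB2, the perlecan gene trol and the nidogen gene Ndg. These are 8 of the 16727 genes counted. OSCs are a cell line of follicle-cell origin that keeps a somatic piRNA pathway. Each group had 2 libraries made from cells treated for 48 hours with RNAi, against l(3)mbt (L(3)mbt KD), against Lint-1 (Lint-1 KD), against the gene of Lint-O (Lint-O KD), or against EGFP, a sequence that fly cells lack, as the control (EGFP KD). All groups were grown in the same M3-based medium with serum, insulin and fly extract, so the control cells had been through RNAi as well. L(3)mbt binds chromatin through its MBT repeats and represses transcription, and Lint-1 and Lint-O are its partner proteins. Polyadenylated RNA was sequenced. The series' ChIP and input samples are not analysed here.

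A basement membrane is the sheet of extracellular matrix under an epithelium. Laminin trimers, each of an alpha, a beta and a gamma chain, assemble at the cell surface, and collagen IV trimers form a second network that perlecan and nidogen connect to the first. In the Drosophila ovary the follicle cells secrete the matrix that surrounds the egg chamber and helps to shape it as it elongates. Cg25C encodes the alpha1 chain and vkg the alpha2 chain of collagen IV. LanB1 and LanB2 encode the only laminin beta and gamma chains of the fly, while LanA and wb encode its alternative alpha chains.

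Reads on genes came to between 18293791 and 20978039 per library, and the 8 genes together took 0.146% to 0.259% of them. All 8 passed the low-count filter. Each RNAi target was lower in both libraries carrying its label. l(3)mbt averaged 99.3 ± 4.79 CPM (reads of a gene relative to all gene reads of its library, on a common scale) in L(3)mbt KD and 186.5 ± 1.13 CPM in EGFP KD (SD, n = 2 each), so the knockdown was partial. Lint-1 averaged 10.98 ± 1.65 CPM in Lint-1 KD and 54.4 ± 4.54 CPM in EGFP KD. The Lint-O gene, listed as CG2662, averaged 1.57 ± 0.594 CPM in Lint-O KD and 18.97 ± 1.31 CPM in EGFP KD. Of 8 follicle markers, tj, fs(1)Yb and ptc were above 190 CPM in every library. zfh1 stood at 60.9 to 174.7 CPM, Fas3 at 24.1 to 37.6 CPM, eya at 18.9 to 58.4 CPM and Wnt4 at 0.943 to 4.58 CPM. Only cas averaged under 1 CPM. Of 10 markers of hemocytes, the blood cells that make much of the fly's collagen IV, 7 averaged under 1 CPM. Among them He had no read in any library and Hml had 6 reads in all 8 together. The rest of the 10, crq, srp and lz, averaged above 1 CPM. Nothing in the labels states that the replicate libraries were separate cultures. The p-values therefore reflect the spread between these libraries alone, and it may be technical.

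Levels are CPM scaled by the trimmed mean of M values (TMM). They are not divided by transcript length, so they are compared between libraries and not between genes. Tests were made with edgeR (quasi-likelihood) on 8244 genes, with a call at an adjusted p under 0.05. In L(3)mbt KD against EGFP KD, 1 of the 8 genes rose (Cg25C), against 9.58% of all tested genes, and 1 fell (trol), against 1.31% (10.9% of all tested genes were called in either direction). There 3 of the 8 had an unadjusted p in edgeR under 0.05, against 24.3% of all tested genes, and DESeq2 called 2, against 12.7%. In Lint-1 KD 1 rose (Cg25C), against 8.41%, and none fell, against 1.25% (9.66% in either direction). In Lint-1 KD 4 of the 8 had an unadjusted p in edgeR under 0.05, against 23.8%, and DESeq2 called 3, against 12%. In Lint-O KD none rose, against 5.2%, and none fell, against 0.255% (5.46% in either direction). In Lint-O KD 2 of the 8 had an unadjusted p in edgeR under 0.05 (Cg25C and vkg), against 13.2%, and DESeq2 called none, against 6.47%. The median log2 fold change of the 8 was -0.01 in L(3)mbt KD, -0.21 in Lint-1 KD and -0.14 in Lint-O KD, beside -0.01, -0.01 and -0.01 over all tested genes. The 3 comparisons share the EGFP KD libraries.

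**Figure D1:**
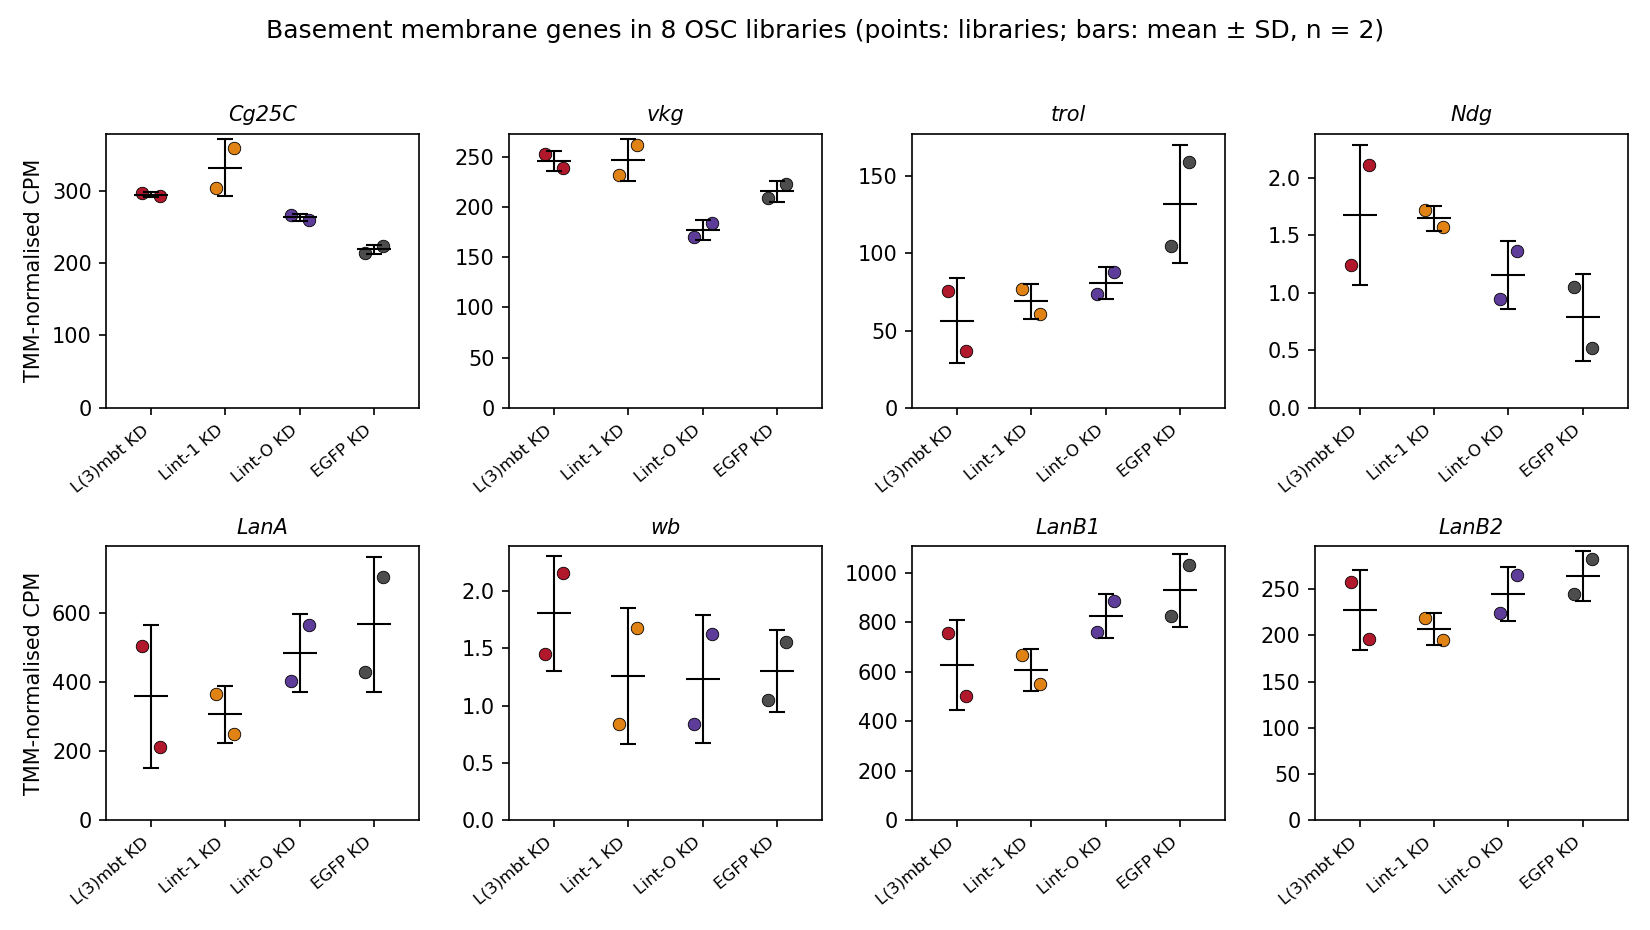
Level of each basement membrane gene in every library, as TMM-normalised CPM on a linear axis from 0; points are libraries and bars are the mean ± SD of the 2 libraries of a group. Cg25C was higher in all 6 libraries of the 3 knockdowns than in both EGFP KD libraries, trol was lower in all 6, and the laminin genes spread widely within groups.

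Cg25C lies on 2L (dm6, 5029609 to 5037279), next to vkg (2L, 5012144 to 5028191). The gene spans are 1417 bases apart with no gene between them, and the collagen IV genes are known to be transcribed away from each other. Cg25C stood at 296.8 and 292.0 CPM in L(3)mbt KD, against 214.4 and 223.2 CPM in EGFP KD. The level rose in L(3)mbt KD, with a log2 fold change of 0.43 (SE 0.113, adjusted p in edgeR = 0.0417). In Lint-1 KD it stood at 304.1 and 359.3 CPM, and rose with a log2 fold change of 0.60 (SE 0.113, adjusted p in edgeR = 0.00969). In Lint-O KD it stood at 266.0 and 259.7 CPM, a log2 fold change of 0.26 (SE 0.113) that did not pass (adjusted p in edgeR = 0.346). The libraries of the 4 groups did not overlap at all, in the order Lint-1 KD, L(3)mbt KD, Lint-O KD and EGFP KD, but no 2 neighbours in that order differed by the test.

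The call of Cg25C in L(3)mbt KD did not hold when any 1 of the 4 libraries was left out (log2 fold change 0.40 to 0.46, adjusted p in edgeR from 0.0819 to 0.198), when those 4 libraries were fitted by themselves (0.0993) or with the replicate number as a block (0.0799). In Lint-1 KD the call ended without EGFP KD 1 (adjusted p in edgeR = 0.0753), without EGFP KD 2 (0.0660) or without Lint-1 KD 2 (0.101).

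vkg had log2 fold changes of both signs. It stood at 252.8 and 238.4 CPM in L(3)mbt KD, 232.1 and 261.8 CPM in Lint-1 KD and 169.8 and 184.0 CPM in Lint-O KD, against 208.5 and 223.2 CPM in EGFP KD. Both libraries of L(3)mbt KD and of Lint-1 KD lay above the control libraries, and both of Lint-O KD lay below them. None of these differences passed the test. The log2 fold changes were 0.19 in L(3)mbt KD (SE 0.112, adjusted p in edgeR = 0.355), 0.19 in Lint-1 KD (SE 0.112, adjusted p in edgeR = 0.327) and -0.29 in Lint-O KD (SE 0.112, adjusted p in edgeR = 0.287).

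The reads of Cg25C relative to those of vkg in the same library do not depend on how libraries are scaled. This ratio was 1.17 and 1.22 in L(3)mbt KD, 1.31 and 1.37 in Lint-1 KD and 1.57 and 1.41 in Lint-O KD, against 1.03 and 1.00 in EGFP KD. Every knockdown library therefore had relatively more Cg25C than either control library. The 95% counting intervals of the control libraries reached up to 1.08 (EGFP KD 1), and the lowest lower bound among the knockdown libraries was 1.13 (L(3)mbt KD 1). On the log2 scale the mean ratio was 0.26 ± 0.0432 in L(3)mbt KD, 0.42 ± 0.0473 in Lint-1 KD and 0.57 ± 0.106 in Lint-O KD, against 0.02 ± 0.0283 in EGFP KD (SD, n = 2 each). The ratio was thus 1.18-fold, 1.32-fold and 1.47-fold that of the control, each shift larger than the spread between libraries. The exact two-sided permutation test gave p = 0.333 for each, the smallest value that 2 libraries against 2 allow.

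The largest shift of the ratio came in Lint-O KD, where Cg25C lay above and vkg below the control. The libraries of Lint-O KD differed from each other beyond counting error, with intervals of 1.498 to 1.637 and 1.35 to 1.47. Set directly against each other, vkg was lower in Lint-O KD than in L(3)mbt KD by a log2 fold change of -0.47 (SE 0.113), which did not pass in edgeR (adjusted p = 0.101) and passed in DESeq2 (adjusted p = 0.0470). Between Lint-1 KD and Lint-O KD the log2 fold change of vkg was 0.48 (SE 0.113, adjusted p in edgeR = 0.0859). That difference passed in DESeq2 (adjusted p = 0.0318), without the low-count filter (adjusted p in edgeR = 0.0490) and when the 4 libraries were fitted by themselves (adjusted p in edgeR = 0.0477).

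**Figure D2:**
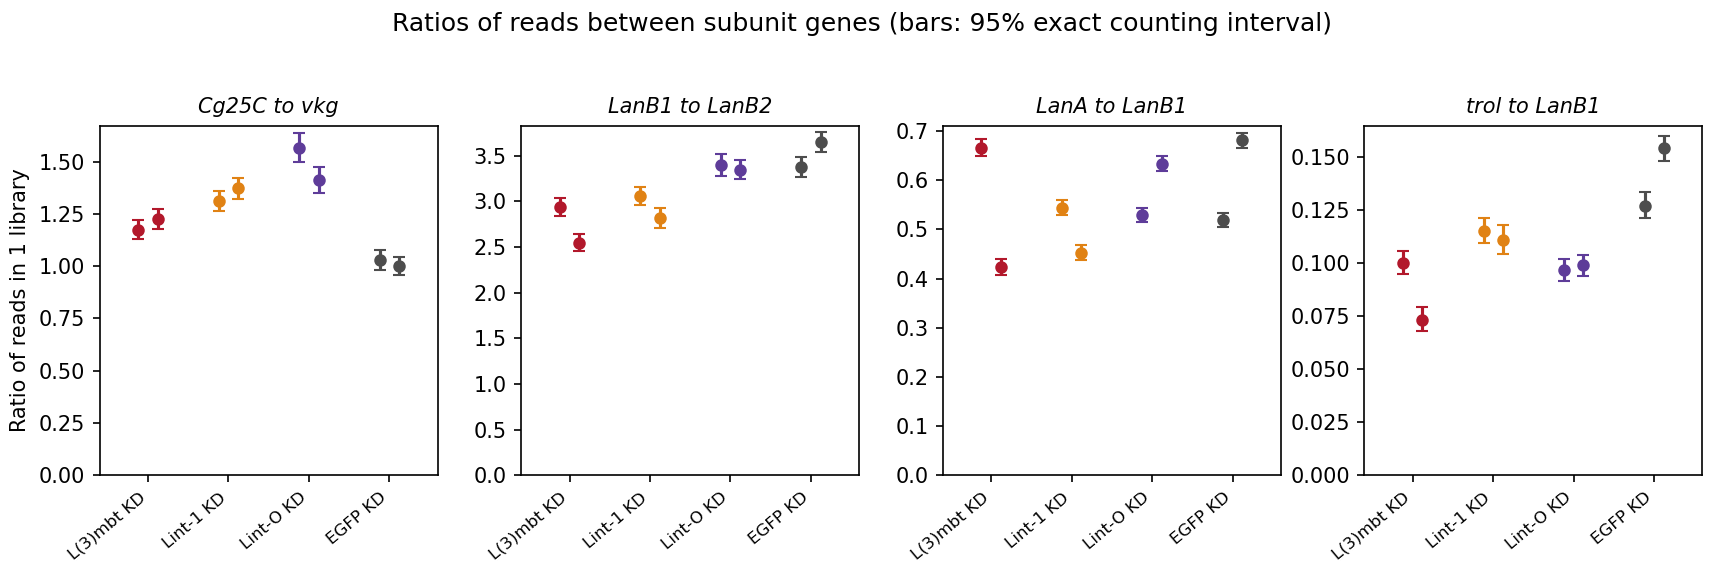
Ratio of reads between named genes within each library, on linear axes from 0; points are libraries and bars the 95% exact counting interval. For Cg25C to vkg, both EGFP KD libraries lie at 1.03 and 1.00 and the knockdown libraries between 1.17 and 1.57, while the ratio of LanA to LanB1 overlaps between the groups.

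Markers of follicle cells and of other cells were set beside the collagen values. The 8 follicle markers summed to 933.4 to 1196 CPM in L(3)mbt KD and 977.6 to 1070 CPM in Lint-1 KD. Their sum was 960.1 to 1115 CPM in Lint-O KD and 899.4 to 1126 CPM in EGFP KD. In edgeR eya and Wnt4 rose in L(3)mbt KD (log2 fold change 0.75 and 2.02), against 9.58% of all tested genes. eya rose in Lint-1 KD (1.42), against 8.41%, and none of the 8 was called in Lint-O KD, against 5.46%. The summed level of the 10 hemocyte markers was 43.1 to 54.6 CPM in L(3)mbt KD, 45.3 to 49.7 CPM in Lint-1 KD and 52.9 to 55.5 CPM in Lint-O KD, against 39.0 to 52.2 CPM in EGFP KD. Most of that sum was crq, a scavenger receptor gene, at 33.6 to 50.2 CPM in a library. srp stood at 2.94 to 9.46 CPM and lz at 0.472 to 4.47 CPM. The other 7, among them He, Hml, NimC1 and eater, were at or near 0 in every library. Of 10 genes listed as markers of the fat body, the other main source of collagen IV in the fly, 8 averaged under 1 CPM and Lsp1alpha, Fbp1 and Fbp2 had no read. Their summed level was 10.6 to 10.98 CPM in L(3)mbt KD, 4.03 to 4.97 CPM in Lint-1 KD and 6.03 to 7.39 CPM in Lint-O KD, against 1.46 to 2.60 CPM in EGFP KD, nearly all of it Yp3 and Rfabg. Of these 2, the only ones tested, Yp3 rose in L(3)mbt KD (log2 fold change 2.97, SE 0.561, adjusted p in edgeR = 0.00851), against 9.58% of all tested genes. In Lint-1 KD and Lint-O KD edgeR called neither, against 9.66% and 5.46% of all tested genes. DESeq2 called 1 of the 2 in L(3)mbt KD, in Lint-1 KD and in Lint-O KD, against 12.7%, 12% and 6.47%. The 7 germ cell markers, with osk near 0 and otu at 0, summed to 190.6 to 194.2 CPM in L(3)mbt KD, 71.4 to 77.7 CPM in Lint-1 KD and 109.8 to 136.4 CPM in Lint-O KD, against 12.5 to 16.1 CPM in EGFP KD. Their part in the collagen values was not tested. In a bulk library, fewer cells of a type and less RNA per cell cannot be told apart.

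The laminin genes were lower on average in every knockdown, except for wb in L(3)mbt KD, but none of these differences passed the test. The libraries within groups lay far apart. LanA (3L, 6203831 to 6218022), for the alpha chain, stood at 504.1 and 212.1 CPM in L(3)mbt KD, 363.7 and 248.4 CPM in Lint-1 KD and 402.6 and 562.9 CPM in Lint-O KD, against 427.8 and 703.5 CPM in EGFP KD. The L(3)mbt KD libraries differed 2.38-fold from each other and those of EGFP KD 1.64-fold. The libraries of Lint-1 KD lay below both control libraries, and those of the other knockdowns overlapped them. The log2 fold changes were -0.66 in L(3)mbt KD (SE 0.389, adjusted p in edgeR = 0.344), -0.89 in Lint-1 KD (SE 0.391, adjusted p in edgeR = 0.209) and -0.23 in Lint-O KD (SE 0.388, adjusted p in edgeR = 0.948). In L(3)mbt KD the value was -1.43 without L(3)mbt KD 1 (adjusted p in edgeR = 0.0180), which passed, and -0.14 without L(3)mbt KD 2 (adjusted p in edgeR = 0.859). It was -0.26 without EGFP KD 2 (adjusted p in edgeR = 0.815). Without the low-count filter LanA passed in Lint-1 KD (adjusted p in edgeR = 0.0169).

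LanB1 (2L, 7811438 to 7820771), for the beta chain, stood at 756.9 and 500.6 CPM in L(3)mbt KD, 668.4 and 549.0 CPM in Lint-1 KD and 761.0 and 887.9 CPM in Lint-O KD, against 825.2 and 1032 CPM in EGFP KD. Both libraries of L(3)mbt KD and of Lint-1 KD were below the control libraries, and those of Lint-O KD overlapped them. The log2 fold changes were -0.56 in L(3)mbt KD (SE 0.204, adjusted p in edgeR = 0.127), -0.61 in Lint-1 KD (SE 0.205, adjusted p in edgeR = 0.107) and -0.17 in Lint-O KD (SE 0.204, adjusted p in edgeR = 0.903). Leaving out 1 library moved LanB1 in L(3)mbt KD between -0.91 without L(3)mbt KD 1 (adjusted p in edgeR = 0.0116), which passed, and -0.27 without L(3)mbt KD 2 (adjusted p in edgeR = 0.471), with -0.40 without EGFP KD 2 (adjusted p in edgeR = 0.444). LanB1 also passed in L(3)mbt KD without the low-count filter (adjusted p in edgeR = 0.0180), and in Lint-1 KD with DESeq2 (adjusted p = 0.0368) and when the 4 libraries were fitted by themselves (adjusted p in edgeR = 0.0395).

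LanB2 (3L, 9614914 to 9623980), for the gamma chain, stood at 258.0 and 196.5 CPM in L(3)mbt KD, 218.8 and 195.0 CPM in Lint-1 KD and 224.3 and 265.3 CPM in Lint-O KD, against 244.7 and 283.0 CPM in EGFP KD. Only the Lint-1 KD libraries lay clear of the control. The log2 fold changes were -0.22, -0.35 and -0.11 in L(3)mbt KD, Lint-1 KD and Lint-O KD (SE 0.158 each, adjusted p in edgeR = 0.454, 0.219 and 0.931).

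wb (2L, 14263027 to 14328262), the other alpha chain gene, was near the detection limit with 16 to 42 reads in a library. It stood at 1.45 and 2.16 CPM in L(3)mbt KD, 0.837 and 1.68 CPM in Lint-1 KD and 0.838 and 1.63 CPM in Lint-O KD, against 1.05 and 1.56 CPM in EGFP KD. The groups overlapped, and no difference passed (adjusted p in edgeR from 0.639 to 0.992). Its span overlaps those of 4 other genes, and exons were not compared. The sources used here do not say whether strand was used in counting. Whether any read counted for wb came from those genes is therefore not known.

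Within a library, reads of LanB1 relative to LanB2 were 2.93 and 2.55 in L(3)mbt KD, 3.05 and 2.82 in Lint-1 KD and 3.39 and 3.35 in Lint-O KD, against 3.37 and 3.65 in EGFP KD. The beta chain gene was thus lower relative to the gamma chain gene in L(3)mbt KD (0.779-fold the control ratio) and Lint-1 KD (0.836-fold), without overlap of libraries. The Lint-O KD libraries overlapped the control at 0.961-fold. The exact two-sided permutation test gave p = 0.333 for L(3)mbt KD and for Lint-1 KD, and p = 0.667 for Lint-O KD, where 0.333 is the smallest value possible. Reads of LanA relative to LanB1 were 0.666 and 0.424 in L(3)mbt KD, 0.544 and 0.452 in Lint-1 KD and 0.529 and 0.634 in Lint-O KD, against 0.518 and 0.681 in EGFP KD, and overlapped in all 3 comparisons. Reads of wb relative to LanB1 were 0.00192 and 0.00432 in L(3)mbt KD, 0.00125 and 0.00305 in Lint-1 KD and 0.00110 and 0.00183 in Lint-O KD, against 0.00128 and 0.00151 in EGFP KD. The L(3)mbt KD libraries lay above the control without overlap, at 2.07-fold its ratio (exact two-sided permutation p = 0.333), from 28 and 42 reads of wb. The Lint-1 KD and Lint-O KD libraries overlapped the control at 1.41-fold and 1.02-fold (exact two-sided permutation p = 1.0 for each).

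The perlecan gene trol (X, 2470460 to 2545427) was the only one of the 8 that fell. Perlecan is a large heparan sulfate proteoglycan of the basement membrane. It stood at 75.8 and 36.7 CPM in L(3)mbt KD, 77.0 and 60.9 CPM in Lint-1 KD and 73.6 and 87.9 CPM in Lint-O KD, against 105.0 and 159.2 CPM in EGFP KD. All 6 knockdown libraries lay below both control libraries. The level fell in L(3)mbt KD, with a log2 fold change of -1.23 (SE 0.320, adjusted p in edgeR = 0.0401). The log2 fold changes in Lint-1 KD, -0.94 (SE 0.318, adjusted p in edgeR = 0.111), and in Lint-O KD, -0.71 (SE 0.316, adjusted p in edgeR = 0.384), did not pass.

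The call of trol in L(3)mbt KD ended without L(3)mbt KD 2 (log2 fold change -0.78, adjusted p in edgeR = 0.120), without EGFP KD 2 (-0.90, adjusted p in edgeR = 0.191), when the 4 libraries were fitted by themselves (adjusted p in edgeR = 0.129) and with the replicate number as a block (adjusted p in edgeR = 0.0817), and without L(3)mbt KD 1 the log2 fold change was -1.86 (adjusted p in edgeR = 0.00150). In Lint-1 KD trol passed with DESeq2 (adjusted p = 0.0150), when the 4 libraries were fitted by themselves (adjusted p in edgeR = 0.0340) and without the low-count filter (adjusted p in edgeR = 0.00479). Relative to LanB1 in the same library, a ratio chosen after the values were seen, trol had 0.100 and 0.0734 reads per LanB1 read in L(3)mbt KD, 0.115 and 0.111 in Lint-1 KD and 0.0967 and 0.0990 in Lint-O KD, against 0.127 and 0.154 in EGFP KD. The knockdown libraries were lower without overlap, at 0.612-fold, 0.807-fold and 0.698-fold the control ratio (exact two-sided permutation p = 0.333 for each). Muscle, another tissue with a basement membrane, was represented by 8 markers. They summed to 39.2 to 61.1 CPM in L(3)mbt KD, 33.9 to 41.1 CPM in Lint-1 KD and 57.1 to 75.9 CPM in Lint-O KD, against 52.2 to 82.98 CPM in EGFP KD, with Mlc1, up and wupA near 0. Of the 5 tested markers 1, Act57B, fell in L(3)mbt KD (log2 fold change -1.04, SE 0.214, adjusted p in edgeR = 0.0129), against 1.31% of all tested genes. It also fell in Lint-1 KD (-1.13, SE 0.214, adjusted p in edgeR = 0.0102), against 1.25%. No muscle marker was called in Lint-O KD, against 5.46% of all tested genes called there in either direction. The part of these markers in the trol values was not tested.

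Ndg (2R, 10313891 to 10322104), for nidogen, had only 10 to 41 reads in a library. It stood at 1.24 and 2.11 CPM in L(3)mbt KD, 1.72 and 1.57 CPM in Lint-1 KD and 0.943 and 1.36 CPM in Lint-O KD, against 1.05 and 0.520 CPM in EGFP KD. Both libraries of L(3)mbt KD and of Lint-1 KD were above the control libraries. The log2 fold changes of 1.09 (SE 0.508, adjusted p in edgeR = 0.230), 1.07 (SE 0.507, adjusted p in edgeR = 0.239) and 0.56 (SE 0.523, adjusted p in edgeR = 0.851) did not pass. The span of Ndg overlaps that of CG34222.

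**Figure D3:**
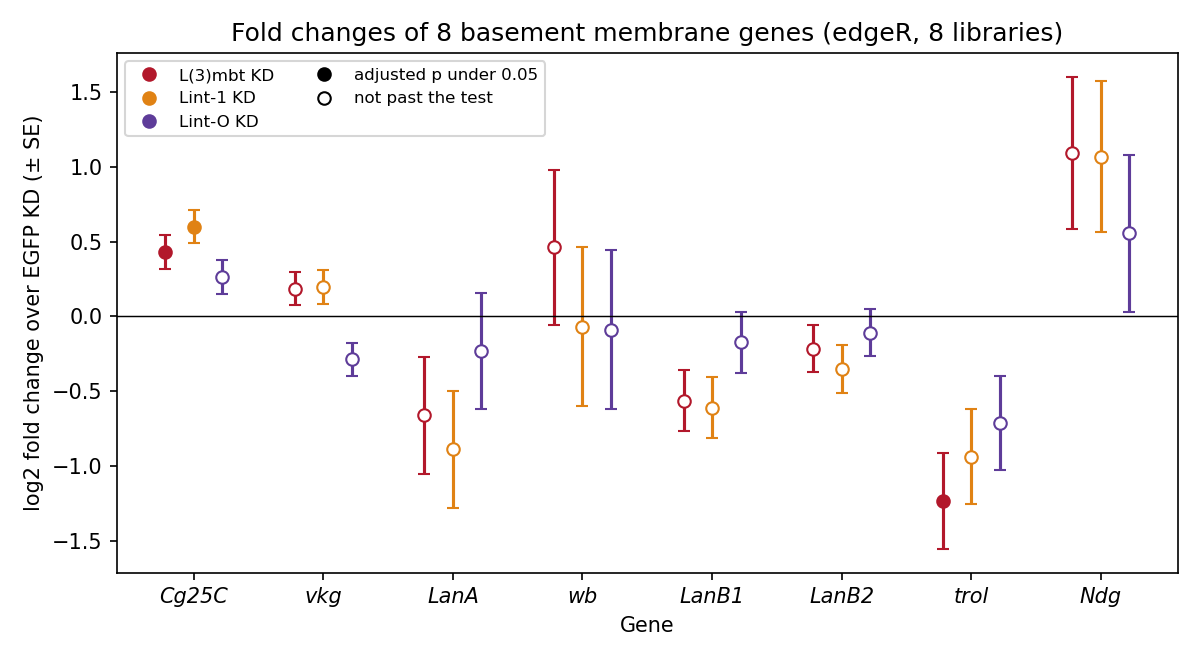
Log2 fold change over EGFP KD (± SE) of the 8 basement membrane genes in each knockdown, from edgeR over 8 libraries; filled points passed an adjusted p of 0.05. Cg25C passed in L(3)mbt KD and Lint-1 KD and trol in L(3)mbt KD, and the bars of wb and Ndg, the genes with the fewest reads, are the widest.

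LanA, LanB1, LanB2 and trol differed between libraries of the same group in a shared way, and the laminin gene wb did not share it. Relative to the mean of the 8 libraries, LanA deviated on the log2 scale by 0.33 and -0.92 in L(3)mbt KD, -0.14 and -0.69 in Lint-1 KD, 0.01 and 0.49 in Lint-O KD, and 0.10 and 0.81 in EGFP KD. trol deviated by -0.05 and -1.09, -0.02 and -0.36, -0.09 and 0.17, and 0.42 and 1.02 in the same groups. Library 2 was thus the lower one in L(3)mbt KD and Lint-1 KD and the higher one in Lint-O KD and EGFP KD for both genes, and the same held for LanB1 and LanB2. For wb, with few reads, library 2 was the higher one in every group. As a description over the 8 libraries, which share their groups, Pearson's r was 0.976 between LanA and LanB1 (Spearman's rho 0.929), 0.977 between LanA and LanB2 (0.976) and 0.888 between LanA and trol (0.833). Between LanA and wb it was -0.228 (-0.190), between Cg25C and LanB1 -0.771 (-0.786), and between Cg25C and vkg 0.537 (0.714).

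The span of a gene also went with a library's level. A trend of all tested genes against the log2 of their span, taken at the span of trol, was 0.37 and -0.06 in L(3)mbt KD, 0.04 and -0.10 in Lint-1 KD, -0.22 and 0.08 in Lint-O KD, and -0.22 and 0.27 in EGFP KD. With that trend removed, trol had a log2 fold change of -1.38 in L(3)mbt KD (SE 0.185, adjusted p in edgeR = 0.000713), and passed in Lint-1 KD (-0.86, SE 0.183, adjusted p in edgeR = 0.0124) but not in Lint-O KD (-0.58, SE 0.182, adjusted p in edgeR = 0.124). LanB1 then passed in L(3)mbt KD (-0.57, adjusted p in edgeR = 0.0181) and Lint-1 KD (-0.56, adjusted p in edgeR = 0.0217). Cg25C no longer passed in L(3)mbt KD (0.44, SE 0.140, adjusted p in edgeR = 0.0671) and still did in Lint-1 KD (0.65, adjusted p in edgeR = 0.0136).

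**Figure D4:**
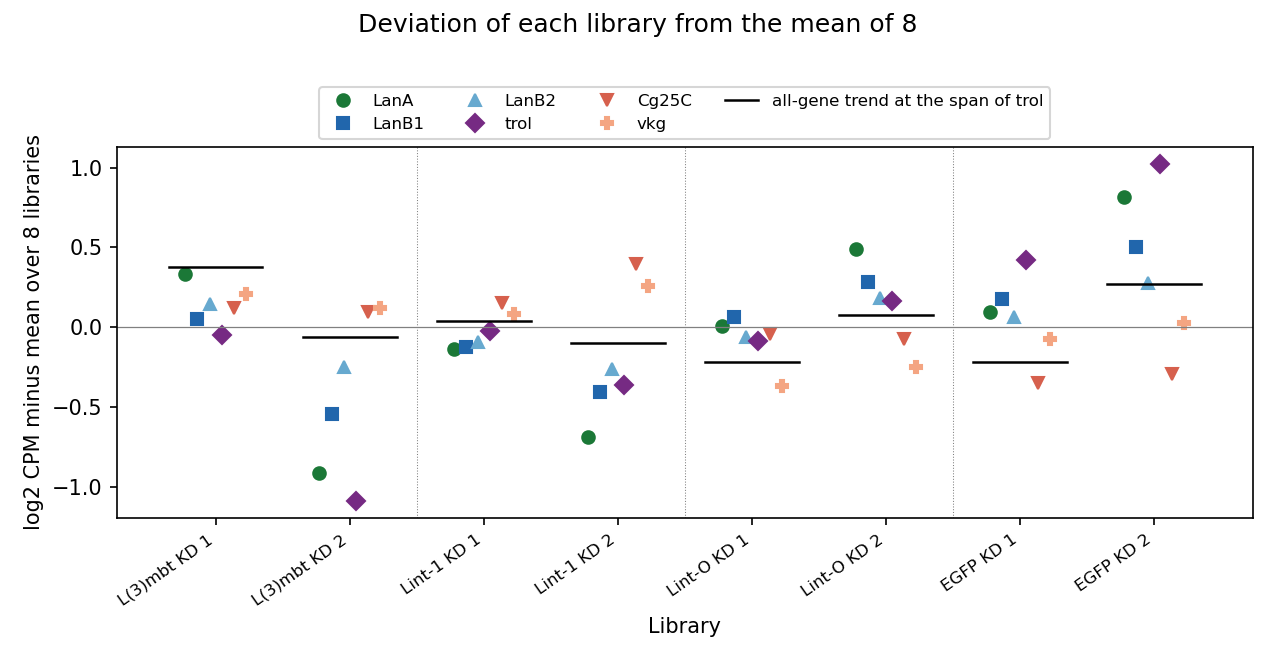
Deviation of each library's log2 CPM from the mean of the 8 libraries, for LanA, LanB1, LanB2, trol and the collagen IV genes (wb and Ndg are not drawn). The short black lines are the trend of all tested genes at the gene span of trol. LanA and trol lie lowest in L(3)mbt KD 2 (-0.92 and -1.09) and highest in EGFP KD 2 (0.81 and 1.02), while Cg25C lies below the mean in both EGFP KD libraries.

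By the root mean square difference of centred log2 CPM over the 8 libraries, the genes with a pattern most like Cg25C were CG32147 (0.0671), msl-3 (0.0706) and Oscillin (0.0722). vkg came only at rank 961 of 6101 compared genes (0.209), and trol at rank 5970. The genes most like trol were Mat89Ba (0.145), CG15099 (0.176) and Apc (0.194). LanA stood at rank 35 for trol (0.264), LanB1 at rank 82 (0.293) and LanB2 at rank 790.

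Set directly against one another, the knockdowns gave no call among the 8 genes in the edgeR test on 8244 genes. Between Lint-1 KD and L(3)mbt KD, where edgeR called 0.0364% of tested genes higher and 0.0364% lower (0.0728% in all), none of the 8 had an unadjusted p under 0.05, against 6.22%, and DESeq2 called none, against 0.68%. Between Lint-O KD and L(3)mbt KD (0.0364% called higher, 0.667% lower and 0.704% in all) 1 of the 8, vkg, had an unadjusted p under 0.05, against 14.6%, and was called by DESeq2, against 2.98%. Between Lint-1 KD and Lint-O KD (0.91% called higher, 0.267% lower and 1.18% in all) 2 of the 8, Cg25C and vkg, had an unadjusted p under 0.05, against 17.6%, and DESeq2 called 1, vkg, against 3.58%. Cg25C differed by a log2 fold change of 0.17 between Lint-1 KD and L(3)mbt KD (SE 0.112, adjusted p in edgeR = 0.943), -0.16 between Lint-O KD and L(3)mbt KD (SE 0.112, adjusted p in edgeR = 0.534) and 0.34 between Lint-1 KD and Lint-O KD (SE 0.112, adjusted p in edgeR = 0.174). Its call in 2 knockdowns and not in the other therefore does not show a difference between them.

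Among 17 genes for the processing and secretion of collagen, 1 rose in each knockdown and none fell, and in each it was Plod, the enzyme that hydroxylates lysines of collagen. Of all tested genes 9.58% rose in L(3)mbt KD, 8.41% in Lint-1 KD and 5.2% in Lint-O KD, so 1 of 17 is near or below that share. The median log2 fold change of the 17 was -0.12 in L(3)mbt KD, 0.00 in Lint-1 KD and -0.05 in Lint-O KD. Plod stood at 72.6 and 68.1 CPM in L(3)mbt KD, 73.9 and 65.9 CPM in Lint-1 KD and 59.5 and 68.4 CPM in Lint-O KD, against 44.3 and 42.7 CPM in EGFP KD, with all 6 knockdown libraries above the control. The log2 fold change was 0.69 in L(3)mbt KD (SE 0.133, adjusted p in edgeR = 0.00917), 0.68 in Lint-1 KD (SE 0.133, adjusted p in edgeR = 0.0113) and 0.55 in Lint-O KD (SE 0.133, adjusted p in edgeR = 0.0444). Left out, EGFP KD 1 or EGFP KD 2 ended the call in L(3)mbt KD (adjusted p in edgeR = 0.0558 and 0.0789) and in Lint-1 KD (0.0653 and 0.0958), as did Lint-1 KD 1 (0.102), and any 1 of the 4 libraries ended it in Lint-O KD (0.108 to 0.320). There the call also ended with the replicate number as a block (adjusted p in edgeR = 0.102). PH4alphaEFB, the collagen prolyl hydroxylase subunit, averaged 243.8 ± 49.7 CPM in L(3)mbt KD, 228.8 ± 9.37 CPM in Lint-1 KD and 200.5 ± 1.33 CPM in Lint-O KD, against 199.8 ± 2.72 CPM in EGFP KD (SD, n = 2 each). Tango1, which loads collagen into carriers at the endoplasmic reticulum, averaged 57.5 ± 19.1, 56.7 ± 5.16 and 73.1 ± 4.64 CPM in the same knockdowns, against 83.9 ± 13.7 CPM in EGFP KD. Neither passed the test in any knockdown.

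Of 6 tested genes for other basement membrane and matrix proteins, 2 rose in L(3)mbt KD (Tig and lox), 2 in Lint-1 KD (Tig and lox) and 1 in Lint-O KD (Tig), and none fell, beside 9.58%, 8.41% and 5.2% of all tested genes that rose. Their median log2 fold changes were 0.39, 0.33 and 0.21. Tig, for tiggrin, a matrix ligand of integrins, stood at 15.5 and 13.1 CPM in L(3)mbt KD, 9.86 and 6.65 CPM in Lint-1 KD and 6.13 and 6.71 CPM in Lint-O KD, against 1.22 and 1.56 CPM in EGFP KD. It rose by a log2 fold change of 3.35 in L(3)mbt KD (SE 0.289, adjusted p in edgeR = 0.000101), 2.56 in Lint-1 KD (SE 0.289, adjusted p in edgeR = 0.000563) and 2.20 in Lint-O KD (SE 0.291, adjusted p in edgeR = 0.00183). These calls held with any 1 library left out (adjusted p in edgeR at most 0.0223). lox, a lysyl oxidase gene whose enzyme class cross-links collagen, stood at 3.57 and 4.27 CPM in L(3)mbt KD, 5.11 and 3.04 CPM in Lint-1 KD and 1.94 and 1.52 CPM in Lint-O KD, against 1.55 and 0.832 CPM in EGFP KD. It rose in L(3)mbt KD (log2 fold change 1.72, SE 0.414, adjusted p in edgeR = 0.0287) and Lint-1 KD (1.78, SE 0.412, adjusted p in edgeR = 0.0267), and in Lint-O KD had a log2 fold change of 0.54 (adjusted p in edgeR = 0.782). The calls of lox ended without EGFP KD 2 in both (adjusted p in edgeR = 0.171 and 0.170), without L(3)mbt KD 2 (0.117) and without Lint-1 KD 1 (0.164), and in L(3)mbt KD also when the 4 libraries were fitted by themselves (0.0693). BM-40-SPARC, a collagen-binding protein of basement membranes, averaged 206.8 ± 31.8 CPM in L(3)mbt KD, 173.7 ± 10.8 CPM in Lint-1 KD and 192.8 ± 12.8 CPM in Lint-O KD, against 165.4 ± 16.5 CPM in EGFP KD (SD, n = 2 each), and did not pass.

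**Figure D5:**
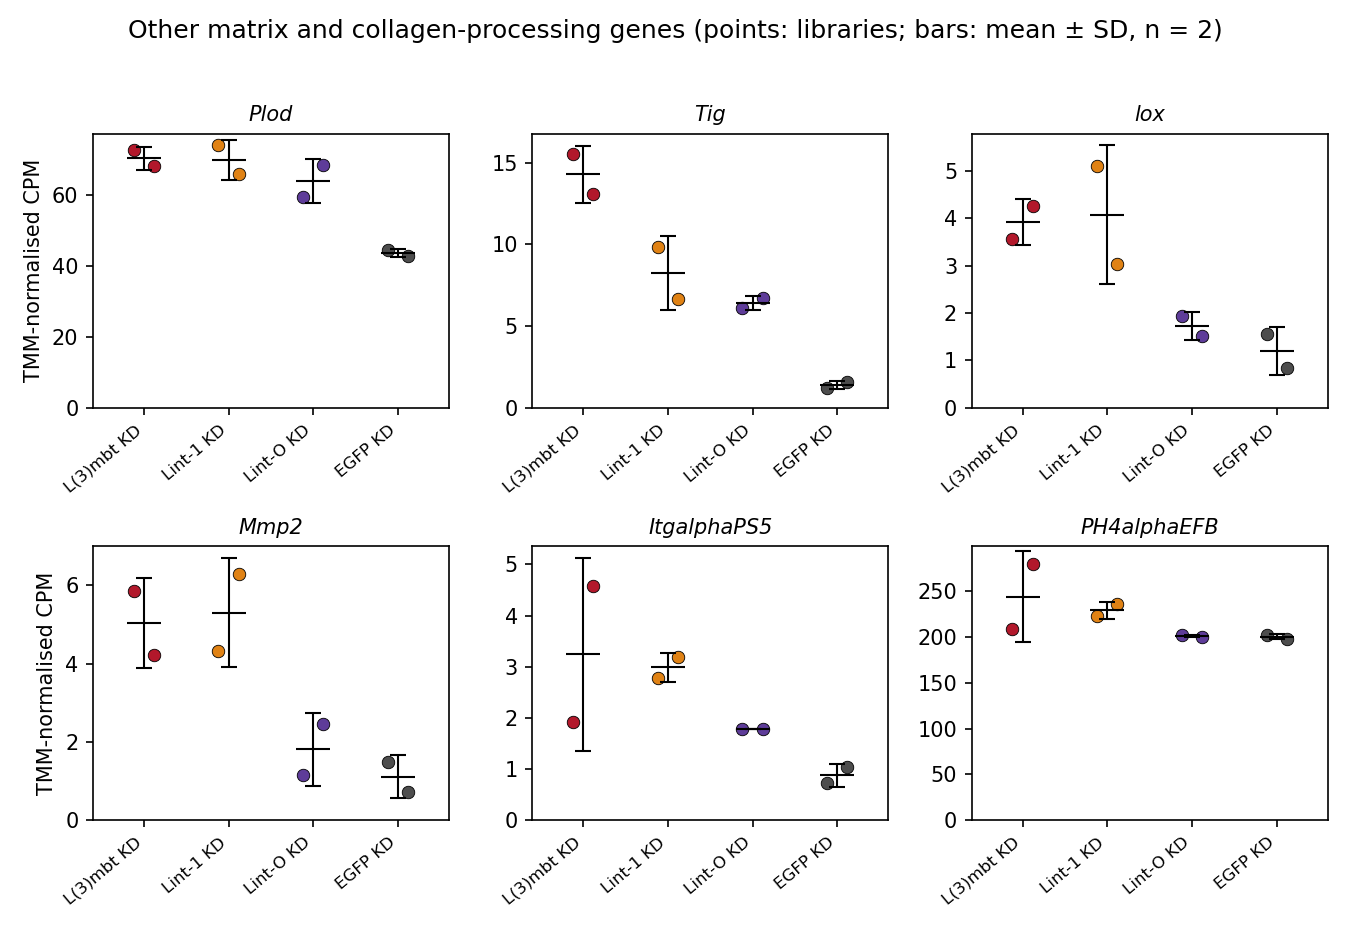
Level of matrix and collagen-processing genes in every library, as TMM-normalised CPM on linear axes from 0; points are libraries and bars the mean ± SD of the 2 libraries of a group. Plod and Tig were higher in all 6 knockdown libraries than in both control libraries, and lox and Mmp2 in the libraries of L(3)mbt KD and Lint-1 KD.

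Of 7 genes that remodel the matrix, 1 rose in L(3)mbt KD (against 9.58% of all tested genes) and in Lint-1 KD (against 8.41%), and none fell, with a median log2 fold change of 0.93 in L(3)mbt KD, 0.85 in Lint-1 KD and 0.08 in Lint-O KD. The gene that rose was Mmp2, for a membrane-anchored matrix metalloproteinase, at 5.85 and 4.22 CPM in L(3)mbt KD, 4.32 and 6.28 CPM in Lint-1 KD and 1.15 and 2.46 CPM in Lint-O KD, against 1.496 and 0.728 CPM in EGFP KD. Its log2 fold change was 2.18 in L(3)mbt KD (SE 0.471, adjusted p in edgeR = 0.0172), 2.25 in Lint-1 KD (SE 0.470, adjusted p in edgeR = 0.0163) and 0.71 in Lint-O KD (SE 0.499, adjusted p in edgeR = 0.711). The calls ended without EGFP KD 2 (adjusted p in edgeR = 0.103 in both) and without Lint-1 KD 2 (0.114). In Lint-O KD edgeR called none of the 7, against 5.46% of all tested genes. There 2 had an unadjusted p in edgeR under 0.05, against 13.2%, and both were lower. These were Mmp1 (log2 fold change -0.785, SE 0.220, adjusted p in edgeR = 0.0937) and AdamTS-A (-0.522, SE 0.177, adjusted p in edgeR = 0.188). DESeq2 called 1 of the 7 there, against 6.47%. Timp, the inhibitor of these proteases, averaged 157.9 ± 21.0 CPM in L(3)mbt KD, 121.8 ± 16.7 CPM in Lint-1 KD and 123.9 ± 1.49 CPM in Lint-O KD, against 149.7 ± 5.20 CPM in EGFP KD (SD, n = 2 each).

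Of 9 tested receptor genes of the basement membrane, 1 rose in L(3)mbt KD, against 9.58% of all tested genes, and the median log2 fold change was -0.01 there, -0.04 in Lint-1 KD and -0.13 in Lint-O KD. The gene was ItgalphaPS5, for an integrin alpha chain, at 1.92 and 4.58 CPM in L(3)mbt KD, against 0.720 and 1.04 CPM in EGFP KD (log2 fold change 1.87, SE 0.476, adjusted p in edgeR = 0.0366). The call held only when L(3)mbt KD 1 was left out. It ended without any other of the 4 libraries (log2 fold change 1.13 to 2.16, adjusted p in edgeR from 0.0883 to 0.231) and when the 4 libraries were fitted by themselves (adjusted p in edgeR = 0.111). ItgalphaPS5 also lay above both control libraries in the other knockdowns, at 2.79 and 3.19 CPM in Lint-1 KD and 1.78 and 1.78 CPM in Lint-O KD. These log2 fold changes, 1.75 (SE 0.477, adjusted p in edgeR = 0.0523) and 1.01 (SE 0.493, adjusted p in edgeR = 0.453), did not pass. In Lint-1 KD edgeR called none of the 9, against 9.66% of all tested genes. There 2 had an unadjusted p in edgeR under 0.05, against 23.8%, and DESeq2 called 2, against 12%. In Lint-O KD edgeR called none, against 5.46%. There 1 had an unadjusted p in edgeR under 0.05, against 13.2%, and DESeq2 called none, against 6.47%. mys, for the main integrin beta chain, averaged 179.0 ± 47.0 CPM in L(3)mbt KD, 184.5 ± 46.4 CPM in Lint-1 KD and 208.3 ± 16.3 CPM in Lint-O KD, against 227.4 ± 37.6 CPM in EGFP KD (SD, n = 2 each). if, for an integrin alpha chain, averaged 195.3 ± 7.92, 193.5 ± 4.45 and 175.7 ± 7.36 CPM in the same knockdowns, against 199.6 ± 4.64 CPM in EGFP KD. Of 14 genes that link integrins to the cytoskeleton, edgeR called none in any knockdown. Of all tested genes it called 10.9% in L(3)mbt KD, 9.66% in Lint-1 KD and 5.46% in Lint-O KD. The median log2 fold change of the 14 was -0.07 in L(3)mbt KD, 0.04 in Lint-1 KD and -0.06 in Lint-O KD. Their unadjusted p-values in edgeR under 0.05 numbered 0 in L(3)mbt KD, 1 in Lint-1 KD and 2 in Lint-O KD. Of all tested genes 24.3%, 23.8% and 13.2% had such a p-value in these knockdowns. DESeq2 called none of the 14, against 12.7%, 12% and 6.47%. Of these, Vinc (vinculin) averaged 225.2 ± 15.4 CPM in L(3)mbt KD, 239.7 ± 11.47 CPM in Lint-1 KD and 224.1 ± 12.8 CPM in Lint-O KD, against 213.6 ± 1.66 CPM in EGFP KD (SD, n = 2 each). parvin averaged 164.9 ± 20.6, 160.6 ± 4.79 and 154.4 ± 13.2 CPM in the same knockdowns, against 166.9 ± 17.9 CPM in EGFP KD.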

How the data were processed

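Each of 8 RNA-seq libraries (stranded, polyadenylated RNA, per the labels' protocols) has a column of raw read counts per gene, as deposited by the authors. The submitters' processing notes name HISAT2, HTSeq, edgeR and dm6, with no role or version. The strand setting and the gene annotation behind the counts are unknown from these sources. The 5 special lines of the counter entered neither the library sizes nor the tests (reads off genes were 14.96% to 18.51% of a library, ambiguous reads 1.05% to 1.13%).

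Counts were tested with edgeR 4.0.16 in R 4.3.3: low-count genes removed by filterByExpr, TMM scaling (factors 0.948 to 1.056), a quasi-likelihood fit of group on the 8 libraries (residual degrees of freedom 4), 6 contrasts, and Benjamini-Hochberg adjustment over 8244 genes. DESeq2 1.42.0 was an alternative. The test was checked on simulated data. Log CPM used a prior count of 3.

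Ratios within a library were taken from raw reads, with 95% exact counting intervals that cover counting error only. Ratios per coding length had been planned, but no lengths were used here, and a length changes a ratio by the same factor in every library. Spans and positions are from the RefSeq gene table (dm6), where 12512 symbols were current, 3996 matched through a synonym and 219 did not match. The trend against log2 span (lowess, span 0.3, 8154 genes) was added after seeing the data.

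The members and lists were chosen with earlier results of these data known. Named were all members, the called genes of each list or otherwise its 2 most abundant genes, and the 3 genes nearest in pattern (mean of at least 10 CPM) to each called member. PH4alphaEFB, Tango1, BM-40-SPARC and Timp were named outside that rule, after their values were seen. Alternatives were the DESeq2 Wald test, scaling by DESeq2 size factors or the upper quartile, no filter, a stricter filter (1 CPM in 2 libraries and 50 counts), the 4 libraries alone, a replicate block, a 2-fold minimum and each library left out.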

Additional observations from a re-analysis of the deposited data

How the results depend on the processing

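The number of the 8 genes called was set by few libraries. With the replicate number as a block, 0 rose and 0 fell in L(3)mbt KD against EGFP KD, and no other count of members moved. Of all 8244 tested genes 636 then rose and 47 fell in L(3)mbt KD. Replicate numbers did not pair the libraries: deviations of same-numbered libraries correlated between -0.377 and 0.356 over genes. With the numbers of L(3)mbt KD and Lint-1 KD crossed, an alternative chosen after seeing the data, 4 fell in L(3)mbt KD, 4 in Lint-1 KD and 2 in Lint-O KD against EGFP KD, 3 were higher and 1 lower in Lint-O KD against L(3)mbt KD, and 2 were higher and 3 lower in Lint-1 KD against Lint-O KD. Of all 8244 tested genes 1186, 1232 and 172 then fell in L(3)mbt KD, Lint-1 KD and Lint-O KD against EGFP KD, compared with 108, 103 and 21 in the fit without it. In Lint-O KD against L(3)mbt KD 572 were then higher and 658 lower, and in Lint-1 KD against Lint-O KD 788 and 961. The gene-span trend removed gave 0 rises and 2 falls in L(3)mbt KD and 2 falls in Lint-1 KD. Of the 8154 genes tested that way 931 rose and 200 fell in L(3)mbt KD, and 203 fell in Lint-1 KD. The 4 libraries alone gave 0 rises and 0 falls in L(3)mbt KD, 2 falls in Lint-1 KD and 1 gene higher in Lint-1 KD against Lint-O KD. Over all genes those fits gave 536 rises and 19 falls of 8004 in L(3)mbt KD and 119 falls of 7983 in Lint-1 KD. In Lint-1 KD against Lint-O KD 237 of 8024 were higher. Without the low-count filter 2 fell in L(3)mbt KD, 3 in Lint-1 KD, and 1 was higher in Lint-1 KD against Lint-O KD. Over all 11551 genes of that fit the same counts were 168, 277 and 244. DESeq2 gave 2 falls in Lint-1 KD, 1 gene lower in Lint-O KD against L(3)mbt KD and 1 higher in Lint-1 KD against Lint-O KD. Over all 8244 genes its same counts were 191, 226 and 200. No rise in L(3)mbt KD or Lint-1 KD reached 2-fold (0 in each). With 1 library left out, rises numbered 0 in every case in L(3)mbt KD and 0 to 1 in Lint-1 KD, and falls 0 to 3 in L(3)mbt KD, while the other comparisons kept 0. The remaining library is then assumed to vary like the other groups. DESeq2 size factors, upper-quartile scaling and the stricter filter changed no count of members. These scalings moved the median of all genes by at most 0.0363 (log2).

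Of the single genes 10 values changed sign, none of them called. wb turned to 0.0189 in Lint-1 KD and 0.0216 in Lint-O KD with the span trend removed. Left out in turn, libraries gave wb -0.64 to 0.34 in Lint-1 KD and -0.62 to 0.32 in Lint-O KD, LanA -0.52 to 0.17 in Lint-O KD and LanB2 -0.22 to 0.0152 in Lint-O KD. The cause was not tested. Groups of 2 libraries and the few reads of wb and Ndg limit what could be detected.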

Other observations

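Some genes outside the 8 had the same order of libraries within groups as LanA, LanB1 and LanB2, and were picked after their values were seen. Dg, for the laminin receptor dystroglycan, stood at 107.6 and 59.3 CPM in L(3)mbt KD, 87.8 and 51.5 CPM in Lint-1 KD and 80.4 and 113.8 CPM in Lint-O KD, against 80.0 and 114.8 CPM in EGFP KD. Sdc, for syndecan, stood at 58.8 and 34.1, 46.1 and 29.96, and 38.6 and 53.0 CPM in the same knockdowns, against 35.9 and 57.9 CPM in EGFP KD. zfh1, a transcription factor gene of the somatic gonad, stood at 156.0 and 69.6, 99.5 and 60.85, and 129.3 and 161.6 CPM, against 98.5 and 174.7 CPM in EGFP KD. In all 3 genes the libraries of each knockdown overlapped or flanked those of the control, and none passed the test in any knockdown.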
